A study of Homo sapiens with 4 samples.

Results

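The genes described here encode the V-ATPase proton pump, the ESCRT complexes and the VPS (vacuolar protein sorting) genes of the endosome and Golgi. They were taken by gene symbol: every probe set with a single annotated symbol that starts with ATP6V, ATP6AP, CHMP or VPS and a digit, or that is HGS, STAM, STAM2, TSG101 or SNF8. This gave 170 of 54675 probe sets on the array and 77 of the 19775 genes with a probe set of their own. The rule used names only and no measured value, but the members were chosen with earlier results of these data known. By role, 23 members were counted with the V-ATPase, 23 with ESCRT and its VPS4 ATPases, and 26 as other VPS genes. Another 5 are antisense or divergent transcripts named after a member. The V-ATPase members include ATP6AP1L, annotated as a transcribed pseudogene, and the other VPS genes include VPS72, which shares only the name. The probe sets annotated to ATP6V1F and CHMP3 carry further symbols and give no value to a gene here, and ATP6V0A4 and CHMP4A were not analysed here.

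HCT116 cells, a long-established line from a human colorectal carcinoma, were transfected by a lipid reagent with control siRNA (2 arrays) or with TET1 siRNA (2 arrays), and their RNA was measured. The TET1 protein oxidises 5-methylcytosine in DNA, and the study looked for genes that it regulates. All cells were transfected, and the labels describe a single TET1 siRNA group, so an effect of TET1 loss and an effect of the siRNA itself cannot be told apart. The samples are called biological duplicates, with no cultures named, so p-values measure the spread between these samples.

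The V-ATPase acidifies endosomes, lysosomes and the Golgi: its V1 sector hydrolyses ATP in the cytosol and its V0 sector carries protons through the membrane. ESCRT complexes act in sequence on endosomes. ESCRT-0 and ESCRT-I collect ubiquitinated receptors, ESCRT-III filaments of CHMP proteins cut the budding vesicle free, and VPS4 takes the filaments apart. The same ESCRT-III machinery separates daughter cells at the end of division and repairs membranes. Retromer returns cargo from endosomes, HOPS and CORVET tether endosomes and lysosomes before fusion, and GARP tethers vesicles that go back from endosomes to the Golgi.

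The TET1 transcript had signals, in arbitrary units, of 58.1 and 59.6 in control arrays and of 14.6 and 15 after TET1 siRNA. On the scale used for every difference below, log2(signal + 16), which understates changes of dim genes, it fell by 1.28 (SE 0.20, limma adjusted p = 9.69e-04). These values are from the brighter of its 2 probe sets. Both lay above the filter, and only 1 was lower when each was tested by itself. Of 12389 genes whose mean level passed a filter on dim signals, 1393 rose (11.2%) and 1316 fell (10.6%) after TET1 siRNA, by a limma adjusted p under 0.05, and the median difference of all was 0.0098. The epithelial markers of the line were all above the filter (7 of 7), 1 of them higher (KRT8) and 1 lower (CDH1). Markers of other cell types were mostly dim: 0 of 4 leukocyte, 2 of 6 neuronal, 3 of 6 fibroblast, 2 of 4 osteoclast and 1 of 5 kidney intercalated cell markers passed the filter. Neuronal markers summed to signals of 739 and 837 on control arrays and 1137 and 1074 on TET1 siRNA arrays. Most of this was SYT1, at 645.7 and 760.3 against 1078.0 and 1016.9. Fibroblast markers summed to 358 and 318 against 395 and 492, mostly COL1A1, at 296.2 and 258.9 against 337.4 and 451.9. In each list only that 1 marker was called higher, so the sums follow these genes and show no rise of either list as a whole. The part of these markers in the results below was not tested. In bulk RNA, fewer cells of a kind and less RNA per cell cannot be told apart.

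Of the 77 members, 72 passed the filter, and 18 of them rose, 7 fell and 47 did not pass the test. This is 25.0% higher against 11.2% of all genes, and 9.72% lower against 10.6%. The members were chosen with earlier results known, so these shares describe them and are no test. The shares were not matched for signal, and dim members could have larger SEs than bright ones (0.29 for ATP6V1G2, 0.08 for ATP6V1A). Both TET1 siRNA arrays lay above both control arrays in 44 of the 72 members (30.9% of all genes tested) and below both in 10 (28.2% of all). The rises lay in the V-ATPase (9 of 21 tested) and ESCRT (8 of 23), with 1 more among the antisense and divergent transcripts. None of the 26 other VPS genes rose and 4 fell. The median log2 difference was 0.28 for V-ATPase, 0.20 for ESCRT and 0.09 for other VPS members, against 0.01 for all genes tested. When a gene's probe sets were averaged instead of taking the brightest one, these medians were 0.18, 0.07 and 0.04. Whether the families differed from each other was not tested. The number of calls depended on how limma estimated each gene's spread: without a trend of variance on signal 8 members rose and 4 fell, and limma without moderation called 0, higher or lower, with 27 members below 0.05 before adjustment.

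**Figure D1:**
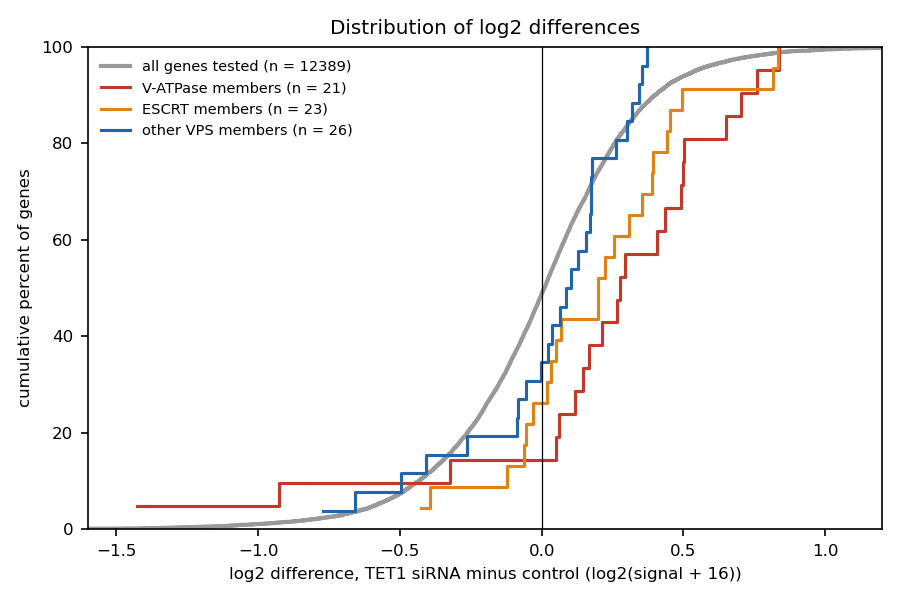
Cumulative percent of genes (vertical axis) against the log2 difference, TET1 siRNA minus control siRNA, on the log2(signal + 16) scale (horizontal axis), for all 12389 genes tested and for 21 V-ATPase, 23 ESCRT and 26 other VPS members. The V-ATPase curve lies furthest to the right over most of its length, with a median of 0.28, and reaches down to -1.43, the lowest value of the 3 member curves; the curve of all genes runs from -2.22 to 3.29.

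Among V1 subunits 6 of 10 tested rose (60.0%) and 1 fell (10.0%), against 11.2% and 10.6% of all genes tested. ATP6V1A, the catalytic subunit that binds ATP, read 1027.2 and 872.9 on the control arrays and 1682.5 and 1728.7 after TET1 siRNA. Both TET1 siRNA arrays lay far above both controls, a log2 difference of 0.84 (SE 0.08, limma adjusted p = 6.06e-05), and its other probe set also rose (0.81). ATP6V1E1, part of the stalk that holds the rotor in place, read 1007.5 and 811.2 against 1498.9 and 1464.9, a difference of 0.70. ATP6V1D, the central shaft of the rotor, read 893.2 and 915.8 against 1397.1 and 1462.1, a difference of 0.65. In both genes the groups were well apart. ATP6V1E1 has 1 probe set. Of the 4 of ATP6V1D, all above the filter, 2 rose and the dim ones did not pass (0.08 and 0.28). ATP6V1H, which links V1 to V0 and restrains the free V1 sector, read 361.8 and 370.7 against 521.4 and 521.8 (difference 0.49). It did not pass with the mean of its probe sets (0.25, adjusted p = 0.224).

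ATP6V1B2, the ubiquitous B subunit, and ATP6V1G1, another stalk subunit, rose by less. ATP6V1B2 read 636.6 and 605.0 against 773.9 and 753.5 (difference 0.29), and ATP6V1G1 read 1552.3 and 1482.8 against 1862.8 and 1818.6 (difference 0.28). Their groups did not overlap. Both calls held without control siRNA replicate 1 and ended without control siRNA replicate 2 (adjusted p = 0.0986 and 0.0629), without TET1 siRNA replicate 1 (0.110 and 0.0889) or replicate 2 (0.0722 and 0.0573). They also ended without a variance trend (0.123 and 0.135), and that of ATP6V1G1 with the mean of its probe sets (0.0591).

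ATP6V1C1 went the other way. This subunit sits where V1 meets V0, and it leaves when the pump comes apart. It read 1010.0 and 1160.7 on the control arrays and 596.8 and 530.4 after TET1 siRNA. That left 51.9% of the control signal, a log2 difference of -0.93 (SE 0.09, limma adjusted p = 5.80e-05). Each of its 4 probe sets fell when tested by itself, by -0.68 to -0.93. The isoform ATP6V1C2 read 53.9 and 40.5 against 33.3 and 35.2, a difference of -0.32 that did not pass (adjusted p = 0.285).

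The V1 isoforms known from restricted tissues gave no call. ATP6V1B1, the isoform of kidney intercalated cells, and ATP6V1G3, a kidney isoform, lay below the filter, with signals of 7.6 and 4.1 against 14.3 and 1.3 for the former and 5.0 and 1.6 against 7.2 and 13.8 for the latter. ATP6V1G2, the neuronal G subunit, read 9.8 and 29.1 against 19.8 and 19.3. ATP6V1E2, the testis E subunit, read 50.2 and 54.6 against 82.3 and 67.6, a difference of 0.41 that did not pass (adjusted p = 0.111).

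Among V0 subunits 2 of 8 rose (25.0%) and 1 fell (12.5%), against 11.2% and 10.6% of all genes tested. ATP6V0A1, an isoform of the large membrane subunit that forms the proton half-channels, read 167.5 and 148.9 against 244.5 and 215.5 (difference 0.50, adjusted p = 0.0116), and its other probe set rose as well. The call ended without control siRNA replicate 2 (adjusted p = 0.0701), without TET1 siRNA replicate 1 (0.104) and without a variance trend (0.0692). ATP6V0D1, which couples the rotor shaft to the membrane ring, read 393.1 and 392.2 against 518.5 and 556.1, a difference of 0.44 (adjusted p = 0.00415). Its groups did not overlap, but its call ended without a variance trend (adjusted p = 0.0622). The proteolipid ring subunits ATP6V0B (0.21, adjusted p = 0.0576) and ATP6V0C (0.14, adjusted p = 0.201) did not pass, and neither did the a2 isoform gene ATP6V0A2 (0.50, adjusted p = 0.0679). ATP6V0D2, the d isoform of osteoclasts and kidney, was dim at 12.0 and 15.9 against 21.2 and 18.7.

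ATP6V0E1, a small membrane subunit of V0, had the largest change of any member tested. It read 1483.5 and 1405.3 on the control arrays and 571.5 and 485.3 after TET1 siRNA, so that 36.6% of the control signal remained (log2 difference -1.43, SE 0.09, limma adjusted p = 2.89e-06). All 7 of its probe sets had lower signals on both TET1 siRNA arrays than on both controls, and 5 passed when tested by themselves, with differences from -0.77 to -1.91. The largest of these came from a probe set that read 1112.3 and 1111.5 against 226.0 and 355.3. Its paralogue ATP6V0E2 read 111.7 and 116.2 against 117.8 and 132.3, a difference of 0.12 that did not pass (adjusted p = 0.598).

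Of the 3 accessory genes, ATP6AP1 rose. Its protein is a membrane glycoprotein bound to V0 that takes part in assembly of the pump. In its only probe set ATP6AP1 read 346.5 and 307.1 against 585.5 and 542.6. This is a 1.73-fold higher mean and a log2 difference of 0.76 (SE 0.10, limma adjusted p = 2.39e-04). The transcript that starts next to ATP6AP1 in the opposite direction, ATP6AP1-DT, read 72.4 and 93.8 against 115.9 and 124.2 and only just passed (0.46, adjusted p = 0.0492). Its call ended without control siRNA replicate 1 (adjusted p = 0.226), TET1 siRNA replicate 1 (0.126) or TET1 siRNA replicate 2 (0.209), and also with no filter (0.135), without a variance trend (0.103), without _x_at and _s_at probe sets (0.0548) and with pseudocount 1 (0.0513). ATP6AP1-DT has 1 probe set, named neither _x_at nor _s_at, so leaving such probe sets out changed only the other genes of the fit. ATP6AP2, the prorenin receptor, read 1523.6 and 1521.0 against 1612.2 and 1816.9 (0.17, adjusted p = 0.139), and ATP6AP1L had a difference of 0.05 (adjusted p = 0.827).

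**Figure D2:**
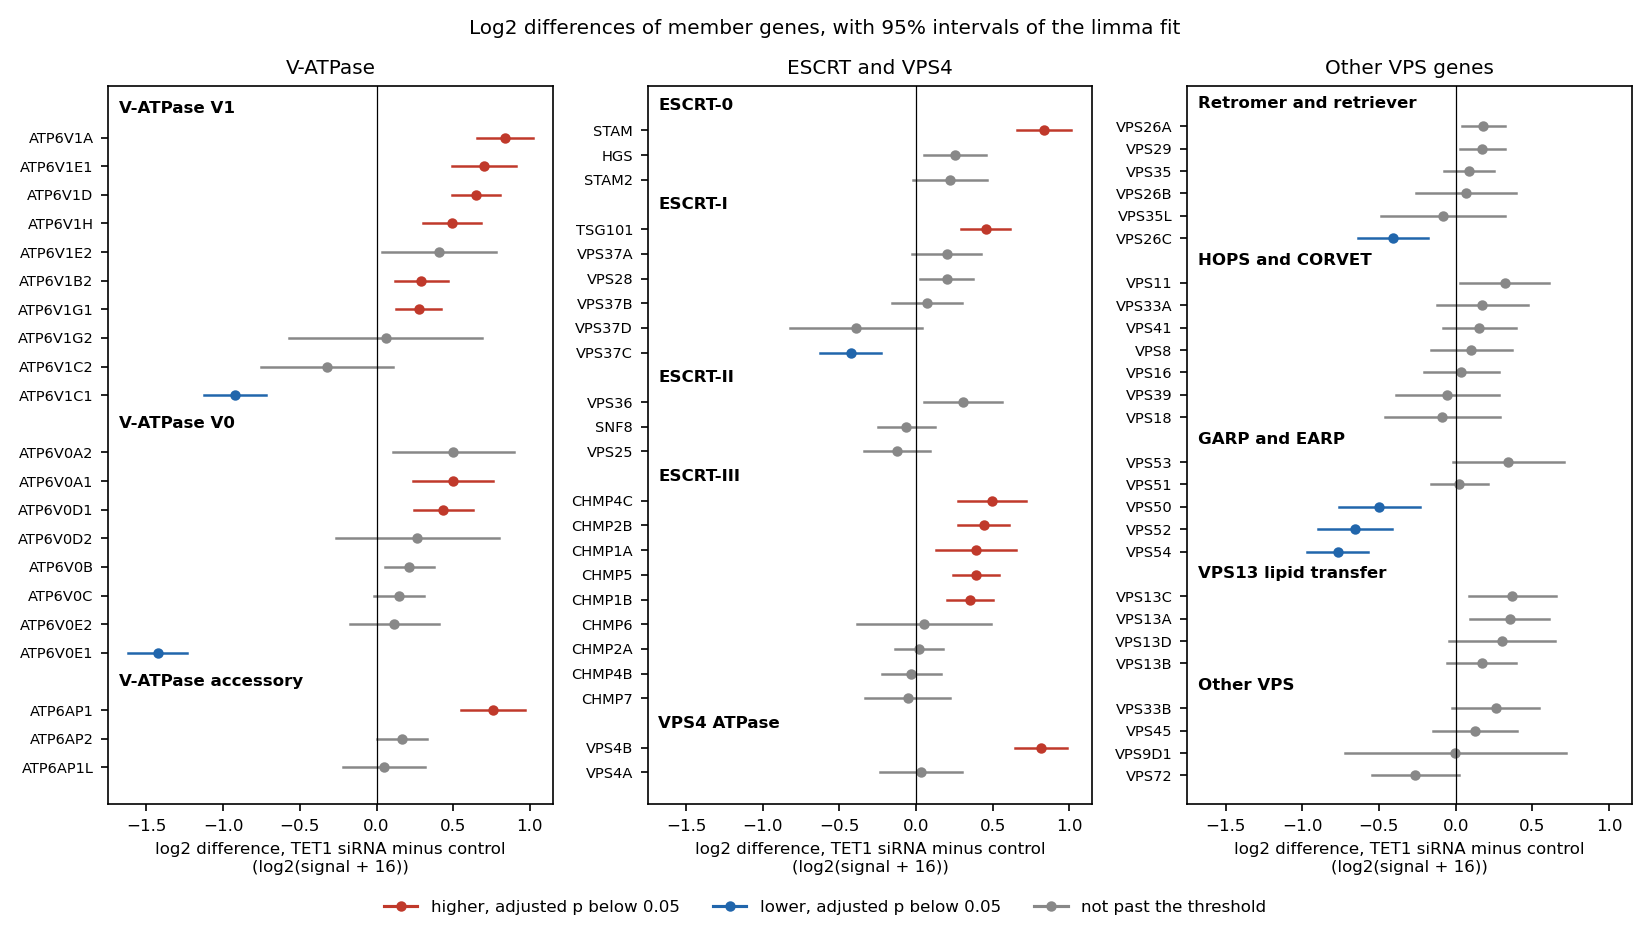
Log2 difference of each tested member, TET1 siRNA minus control siRNA, with the 95% interval of the limma fit (horizontal axis, log2(signal + 16) scale), by complex; red points were higher and blue points lower at adjusted p below 0.05. In the V-ATPase panel ATP6V0E1 (-1.43) and ATP6V1C1 (-0.93) lie to the left of zero and 9 subunit genes in red to the right, and in the right-hand panel the blue points are VPS26C, VPS50, VPS52 and VPS54.

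Many lysosomal and V-ATPase promoters are known to hold an E-box with the core CACGTG, which TFEB, TFE3 and MITF bind, as do MYC and USF factors. The RefSeq promoter table (GRCh38.p14, 250 bases before to 50 after each start) held 68 windows for 56 of the 77 members. CACGTG, which reads the same on both strands, was in 13 of the 68 windows (19.1%), which belong to 11 members. Windows of 1 gene can overlap, so the same site was counted more than once for VPS11 and for ATP6V0E2. CACGTG was in 7.26% of all 35116 windows of the table, or 9.17% of those of the genes tested. Among members it was in 2 of 15 windows of those that rose, 2 of 6 of those that fell and 9 of 41 of those not past. Over all genes it was in 8.58% of the windows of genes that rose and 8.43% of those that fell. The longer TCACGTGA, every match of which also holds CACGTG, was in 5 of 68 (7.35%), against 0.980% of all windows and 1.65% of those of the genes tested. It was in 1.65% of the windows of genes that rose and 1.56% of those that fell. The 4 members with TCACGTGA were ATP6V0D1 and ATP6V1G1, which rose, VPS26C, which fell, and VPS11, which did not pass. A match describes these letters and shows no binding.

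The stretches around TCACGTGA of the 3 members that passed the test are shown because they place the motif within 82 bases of the start in genes that moved in opposite directions. They are on the strand of the gene, end before its annotated start, and carry the motif in capitals. It begins 60 bases before the start in ATP6V0D1 (chr16:67481164-67481263, minus strand), 59 in ATP6V1G1 (chr9:114587664-114587763, plus strand) and 82 in VPS26C (chr21:37267398-37267427, minus strand), where a shorter stretch is given because another transcript of that gene covers it.
ATP6V0D1: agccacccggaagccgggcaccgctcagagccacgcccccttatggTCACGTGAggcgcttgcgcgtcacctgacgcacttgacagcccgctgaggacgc
ATP6V1G1: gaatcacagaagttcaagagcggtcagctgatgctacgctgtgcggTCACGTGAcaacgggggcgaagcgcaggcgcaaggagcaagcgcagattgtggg
VPS26C: ccgctgcgaggTCACGTGAgccactgccgg

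Among ESCRT-0 genes STAM rose and the others did not pass. STAM, an adaptor that binds ubiquitinated receptors together with HGS, read 415.9 and 400.6 on the control arrays and 741.9 and 738.6 after TET1 siRNA. The replicates lay close together and the groups far apart (log2 difference 0.83, SE 0.08, limma adjusted p = 5.09e-05). STAM has 1 probe set. Its paralogue STAM2 read 301.8 and 250.2 against 314.6 and 333.0 (0.22, adjusted p = 0.180), and none of its 5 probe sets passed. HGS read 327.5 and 342.9 against 387.7 and 418.0 (0.25, adjusted p = 0.0745).

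In ESCRT-I 1 gene of 6 rose and 1 fell (16.7% each, against 11.2% higher and 10.6% lower of all genes tested). TSG101, the subunit that binds ubiquitin and the late-domain motifs of ESCRT partners, read 1164.8 and 1090.5 against 1587.4 and 1510.8, a difference of 0.45 (adjusted p = 0.00108). This call rests on 1 probe set and ended without a variance trend (adjusted p = 0.0606). VPS37C, 1 of 4 alternative VPS37 subunits, read 583.8 and 585.0 against 458.7 and 404.7, and its groups were apart (-0.43, adjusted p = 0.00603). A further probe set of VPS37C fell too (-0.38). Its call ended without TET1 siRNA replicate 2 (-0.34, adjusted p = 0.0590), without a variance trend (0.0768), and without _x_at and _s_at probe sets, where a dim probe set gave -0.66 (adjusted p = 0.196). The other VPS37 genes did not pass: VPS37A was at 0.20 (adjusted p = 0.199), VPS37B at 0.07 (0.703) and VPS37D at -0.39 (0.185). VPS28 was at 0.20 (adjusted p = 0.101). No ESCRT-II gene passed: VPS36 was at 0.31 (adjusted p = 0.0806), SNF8 at -0.06 (0.656) and VPS25 at -0.12 (0.427).

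In ESCRT-III 5 of 9 genes rose (55.6%, against 11.2% of all genes tested) and none fell. CHMP4C, which acts in the checkpoint that delays the final cut between daughter cells, read 223.5 and 207.1 against 311.7 and 308.0 (0.50, adjusted p = 0.00494). CHMP2B, mutated in a form of frontotemporal dementia, read 766.2 and 745.0 against 1066.3 and 996.9 (0.44, adjusted p = 0.00176), and all 3 of its probe sets rose. CHMP5, which binds the VPS4 cofactor VTA1, read 1757.8 and 1845.8 against 2441.0 and 2293.7 (0.39). CHMP1B, which recruits spastin, read 1148.9 and 1158.6 against 1457.2 and 1502.2 (0.35), and both of its probe sets rose. In each of these 4 genes both TET1 siRNA arrays lay above both controls. The second probe set of CHMP5 did not pass (0.31, adjusted p = 0.0529). Without a variance trend the calls of CHMP2B (adjusted p = 0.0621), CHMP5 (0.0774) and CHMP1B (0.0823) ended, and CHMP4C only just passed (0.0495).

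CHMP1A read 293.1 and 328.7 against 366.1 and 463.4, with a wide spread between the TET1 siRNA arrays (0.39, adjusted p = 0.0355). Its call ended without control siRNA replicate 1 (adjusted p = 0.166) or control siRNA replicate 2 (0.0529), and without TET1 siRNA replicate 2 the difference was 0.23 (adjusted p = 0.285). It also ended without a variance trend (0.160), with no filter (0.107) and where the probe sets of each gene were averaged (0.0656). CHMP1A has 1 probe set, so averaging changed only the other genes of the fit. The remaining ESCRT-III genes had differences near zero. They were CHMP2A (0.02, adjusted p = 0.885), CHMP4B (-0.03, 0.848), which forms the main filament, CHMP6 (0.05, 0.893), which starts it, and CHMP7 (-0.06, 0.813), which acts at the nuclear envelope. Their 95% intervals were -0.13 to 0.17 for CHMP2A, -0.22 to 0.16 for CHMP4B, -0.39 to 0.49 for CHMP6 and -0.33 to 0.22 for CHMP7.

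VPS4B, 1 of the 2 ATPases that take ESCRT-III filaments apart, read 596.1 and 633.3 on the control arrays and 1065.0 and 1124.4 after TET1 siRNA. Its groups were far apart in its only probe set (log2 difference 0.82, SE 0.08, limma adjusted p = 4.38e-05). The paralogue VPS4A read 329.0 and 254.8 against 285.1 and 308.3, and its groups overlapped (0.03, adjusted p = 0.892, 95% interval -0.24 to 0.30). The difference between the paralogues' changes was not tested, here or for STAM and STAM2.

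**Figure D3:**
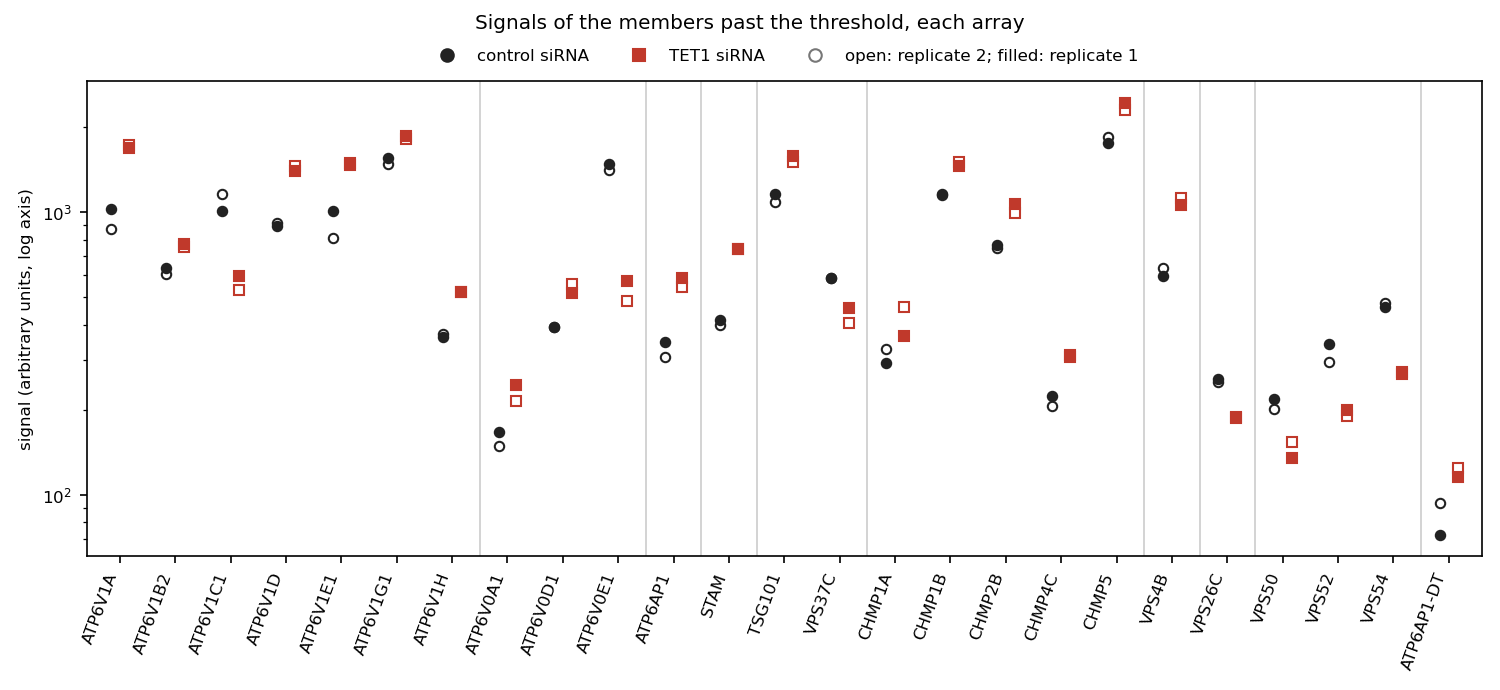
Signal of each array (vertical axis, arbitrary units, log axis) for the 25 members past the threshold, by complex from V1 subunits on the left to ATP6AP1-DT on the right; circles are control siRNA, squares TET1 siRNA, filled replicate 1 and open replicate 2. In every gene shown both squares lie on the same side of both circles; signals of different genes are not comparable.

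GARP and EARP subunits were the VPS group with most falls: 3 of 5 fell (60.0%, against 10.6% of all genes tested) and none rose. The fall of 1 of the 3, VPS50, is uncertain. GARP consists of VPS51, VPS52, VPS53 and VPS54, and in EARP, which works in recycling at endosomes, VPS50 replaces VPS54. VPS54 read 464.0 and 477.2 on the control arrays and 266.9 and 271.7 after TET1 siRNA, leaving 57.2% of the control signal (log2 difference -0.77, SE 0.09, limma adjusted p = 1.55e-04). Its replicates lay close together, and all 3 of its probe sets fell, by -0.50 to -0.77. VPS52, a subunit of both complexes, read 341.6 and 295.0 against 200.1 and 190.8 in its only probe set, and the groups were far apart (-0.66, SE 0.11, adjusted p = 0.00146).

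VPS50 is uncertain. Its brightest probe set read 219.3 and 201.9 against 134.9 and 154.5 (-0.50, adjusted p = 0.0122), while a dim one read 10.2 and 14.2 against 25.4 and 47.6 and rose when tested by itself (0.87, adjusted p = 0.0393). Another dim probe set did not pass by itself (0.10, adjusted p = 0.824). The last lay below the filter, at 0.6 and 5.0 against 12.9 and 6.6. With the mean of its probe sets VPS50 was at 0.23 (adjusted p = 0.291). The fall was not called without control siRNA replicate 1 (adjusted p = 0.0691) or TET1 siRNA replicate 1 (0.0928), nor without a variance trend (0.0650). The other subunits of both complexes did not pass: VPS51 read 444.6 and 440.2 against 444.3 and 455.7 (0.02, adjusted p = 0.886), and VPS53 read 56.6 and 49.2 against 73.0 and 69.5 (0.34, adjusted p = 0.170).

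**Figure D4:**
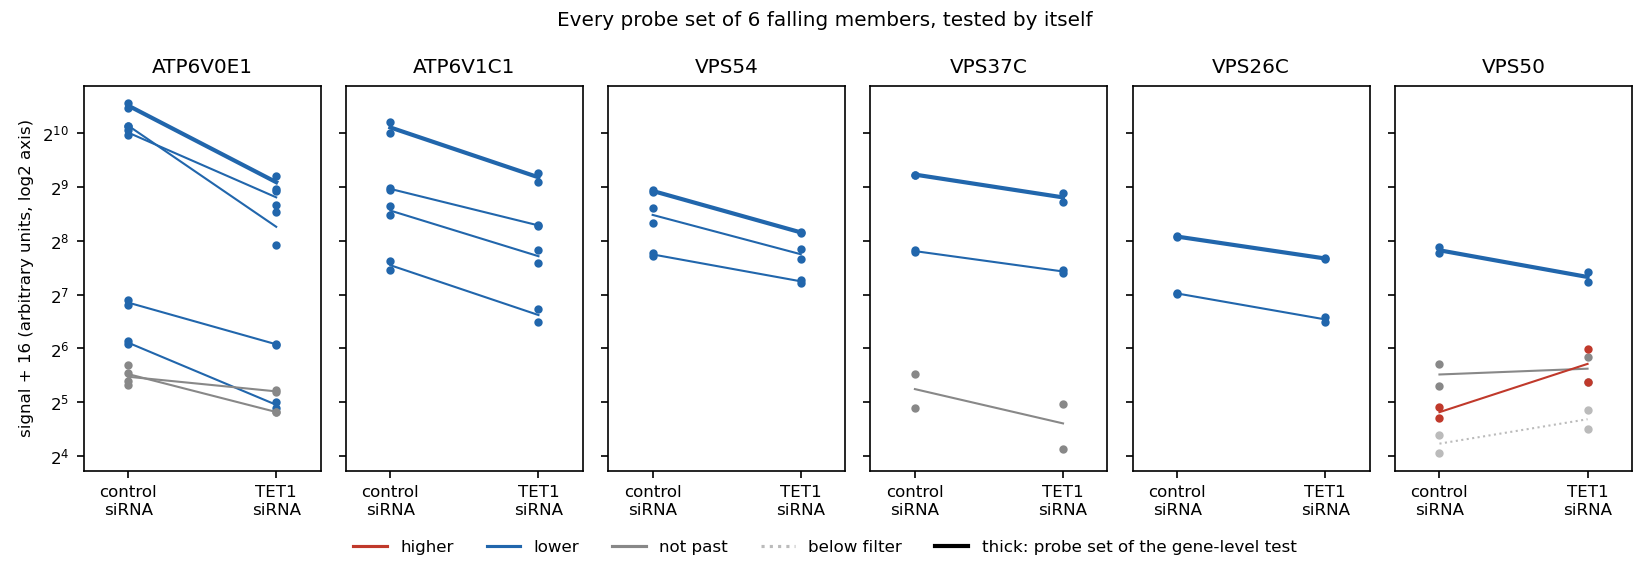
Every probe set of the 6 falling members that have more than 1 (signal + 16 on a log2 axis, arbitrary units): points are arrays, lines join group means, blue probe sets were lower, red higher and grey not past the threshold when each was tested by itself, dotted ones were below the filter, and the thick line is the probe set used for the gene. All lines of ATP6V0E1, ATP6V1C1, VPS54, VPS37C and VPS26C slope down, while VPS50 has a bright probe set that fell and a dim one that rose.

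Of the retromer and retriever genes 1 of 6 fell (16.7%, against 10.6% of all genes tested). VPS26C, the retriever subunit of that family, read 257.3 and 251.3 against 186.9 and 188.8 (-0.41, SE 0.10, adjusted p = 0.0165), and both of its probe sets fell when tested by themselves. This call depended on all arrays: the adjusted p was 0.0674 without control siRNA replicate 1, 0.0552 without control siRNA replicate 2 and, with TET1 siRNA replicate 1 or 2 left out, 0.0753 or 0.0670. Without a variance trend it was 0.0651. The retromer genes did not pass. VPS26A was at 0.18 (adjusted p = 0.0677), VPS29 at 0.17 (0.0899), VPS35 at 0.09 (0.460) and VPS26B at 0.06 (0.816), with VPS35L of retriever at -0.08 (0.806).

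No HOPS or CORVET gene of 7 passed, and their differences ran from -0.09 to 0.32. The lowest p belonged to VPS11, a subunit of both complexes (97.3 and 101.3 against 130.5 and 125.1; 0.32, adjusted p = 0.109), followed by VPS41 of HOPS (0.15, 0.355) and VPS33A (0.17, 0.416). The 4 VPS13 genes encode bridges for lipid transfer between membranes. In their brightest probe sets all had both TET1 siRNA arrays above both controls, as had 30.9% of all genes tested. None passed, and most of their other probe sets above the filter had overlapping groups. VPS13A came closest (131.3 and 135.0 against 174.3 and 174.5; 0.35, adjusted p = 0.0524), ahead of VPS13C (0.37, 0.0642) and VPS13D (0.30, 0.209). A dim probe set of VPS13A fell by itself (-0.74) and a dim one of VPS13B rose (0.61). Of the remaining VPS genes, VPS33B, which acts in sorting with VIPAS39 (0.26, 0.180), VPS72, a chromatin remodelling subunit that shares only the name (-0.26, 0.183), and VPS45, of early endosome fusion (0.13, 0.533), did not pass either. VPS9D1 read 5.1 and 24.5 against 17.0 and 9.8, with overlapping groups (-0.003, adjusted p = 0.996). Among the antisense and divergent transcripts VPS13A-AS1 did not pass (-0.22, adjusted p = 0.674), and ATP6V0E2-AS1, VPS13C-DT and VPS9D1-AS1 lay below the filter.

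Tested probe set by probe set, 137 of the 170 passed the filter; 25 rose and 19 fell. Over all 27306 probe sets above the filter 7.76% rose and 8.31% fell. Of the 19 falling member probe sets, 9 belonged to ATP6V0E1 and ATP6V1C1 and 5 to the GARP and EARP genes.

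Partners of these complexes that lie outside the symbol rule were counted from lists by function. Over all genes tested 11.2% rose and 10.6% fell. In the lists 11.1% (V-ATPase partners) to 23.5% (retromer partners) rose, and at most 7.14% fell (Ragulator and TFE genes). Of 9 V-ATPase partners and assembly factors only DMXL2, of the RAVE-like complex that joins V1 to V0, passed (0.42), and TCIRG1, the a3 isoform gene, was at -0.16 (adjusted p = 0.617). Of 12 ESCRT partners 2 rose, the deubiquitinase gene STAMBP (0.43) and IST1 (0.29), and none fell. Among 22 endosomal Rab, tether and phosphoinositide kinase genes 5 rose and 1 fell. The largest changes were those of RABGEF1, an exchange factor for RAB5 (-0.78), the early endosome tether gene EEA1 (0.56), PIK3C3, the kinase of endosomal phosphoinositides (0.43), and RAB5A (0.39). Not all probe sets above the filter passed when tested by themselves. For RABGEF1 1 of 2 was lower. Those higher were 1 of 2 for EEA1, 1 of 4 for PIK3C3, 2 of 2 for RAB5A, 1 of 3 for STAMBP and 1 of 2 for IST1.

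Among 17 retromer partners and cargo receptors 4 rose and 1 fell. The sorting nexin gene SNX5, whose product works with retromer cargo, read 1381.9 and 1385.1 against 763.7 and 860.9 (-0.76), with 3 of its 5 probe sets above the filter lower. The rises were led by COMMD1 of the Commander complex (0.56), WASHC3 of the WASH complex (0.42) and COMMD3 (0.33). Of 14 Ragulator, Rag and TFE genes, which act at the lysosome surface and in its transcriptional control, 3 rose and 1 fell. MITF read 64.4 and 52.5 against 106.1 and 103.2 (0.70, adjusted p = 0.00801), and 2 of its probe sets rose. LAMTOR3 was at 0.59 and RRAGA at 0.51, while FLCN, a GTPase activator for Rag proteins, fell (-0.46, adjusted p = 0.0481). TFEB (0.03, adjusted p = 0.933) and TFE3 (0.19, adjusted p = 0.474) did not pass. The median differences of the 5 lists ran from -0.02 for ESCRT partners to 0.20 for retromer partners.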

How the data were processed

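The authors deposited 1 intensity per probe set and array on a linear scale, scaled array by array: in the values, each array has a mean of 100.01 once the top and bottom 2% are trimmed. Per the labels' protocols cDNA was primed with oligo(dT), so signals come mainly from 3' ends. The software and background step: not given in the sources used here. Global scaling hides changes in total mRNA. Array medians were 13.9 to 15.5, and the number of arrays limits precision.

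Values were analysed as log2(signal + 16). The brightest probe set stood for each gene. Genes above the median log2 level of all probe sets other than controls (4.86, or 13.1 in signal) were tested with limma 3.58.1 in R 4.3.3 (eBayes with trend, two-sided, Benjamini-Hochberg over all genes, threshold 0.05), with 2 residual and 9.24 prior degrees of freedom. With 2 arrays a group, exact permutation cannot give a p under 0.33. Probe sets were also tested singly, and the fit was tested on simulated data.

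A rule named members past the threshold, those of lowest p in each complex, members with opposed probe sets, restricted V-ATPase isoforms and up to 4 passing genes per partner list; others were chosen after their values were seen. Members and lists were chosen with earlier results of these data known. Alternatives were 2 normalizations, pseudocounts of 1 and 64, other variance models, a replicate block, other filters and probe set choices, and leaving out each array.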

Additional observations from a re-analysis of the deposited data

Results flagged for a closer look

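The array has 7 probe sets with several gene symbols of which 1 would satisfy the symbol rule, and the comparisons above do not use them. Of these, 5 lay above the filter. Tested by themselves with limma, 3 were higher after TET1 siRNA than in the control samples and none was lower. The probe set annotated to both ATP6V1F and LOC101927180 read 1161.7 and 957.4 against 1489.8 and 1482.0 (log2 difference 0.49, adjusted p = 0.00438). A probe set annotated to CHMP3 and RNF103-CHMP3 had a difference of 0.31 (adjusted p = 0.0427), and one that also carries the symbol RNF103 had 0.53 (adjusted p = 0.0163). Which transcript gives these signals was not tested.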

How the results depend on the processing

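In limma without moderation no member, probe set or gene passed in either direction (0 each; 27 members and 2679 genes at unadjusted p below 0.05), and TET1 was at -1.28 (adjusted p = 0.0964). Without a variance trend 8 members rose and 4 fell, with 5 and 10 member probe sets and 442 and 542 genes. Genes higher and lower were 905 and 854 with no filter; those higher were 772 when probe sets were averaged and 885 without _x_at and _s_at probe sets. In the other alternatives run, member counts stayed within 1.5 times and were 14 to 21 higher and 5 to 8 lower. The V-ATPase median was 0.31 with median centring, 0.30 with pseudocount 1, 0.25 with pseudocount 64 and 0.18 with averaged probe sets; the ESCRT median was 0.069 with that mean, and that of other VPS members 0.13 with median centring and 0.035 with the mean. VPS50 was at 0.23 with the mean. The causes were not tested. Leaving out 1 array, which takes a lone array to vary as the opposite group does, gave 813 (without TET1 siRNA replicate 1) to 1159 genes higher, with 840 without TET1 siRNA replicate 2, and 873 (without control siRNA replicate 2) to 982 lower, 14 to 17 members higher and 5 to 6 lower, and medians of 0.26 to 0.36 for V-ATPase, 0.18 to 0.25 for ESCRT and 0.064 to 0.094 for other VPS members. With the replicate number as a block 20 members rose and 7 fell. Same-numbered arrays did not deviate together (r = 0.0055 over genes). With 2 arrays a group this cannot show whether they shared a culture or a day. Of 25 called members, 11 passed in every moderated alternative that measured them.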
